A study of Mus musculus with 3 samples.

Results

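The macrophage at the centre of the erythroblastic island of the bone marrow (BM) is described here by 10 genes: Spic, Maf, Vcam1, Siglec1, Cd163, Mrc1, Cd5l, Mertk, Adgre1 and Axl. They were chosen by name, with their values in the same 3 libraries already known, so the difference between the groups is given as a description and no test of it was made. All 10 were among the 16072 named genes of the deposited table, and all 10 passed the filter used for differences, a mean FPKM of at least 1 over the 3 libraries, as did 9130 genes in all. FPKM is the number of fragments of a gene scaled to the length of its transcript and to the mapped fragments of the library, so levels may be compared between genes as well as between libraries.

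An erythroblastic island is a BM macrophage with developing erythroblasts attached to its surface. The macrophage holds the erythroblasts through adhesion molecules, takes up and digests the nuclei that they expel, clears aged red cells and passes the iron of their haem on to the next generation. Its identity rests in part on transcription factors of the ETS and Maf families, and its surface carries scavenger receptors, lectins and receptor tyrosine kinases that recognise dying cells.

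The cells were labelled Ly6G+ myeloid cells from the BM, Ly6G being a neutrophil antigen that is also bound by Gr-1 antibodies. All mice were C57BL/6, aged 6 to 10 weeks in the study's methods, and all carried subcutaneous B16.F10 melanoma, a mouse skin tumour line, given 1 week before an intramuscular adeno-associated virus (AAV). The AAV-IL-27 vector drove both IL-27 chains, EBI3 and p28, from the ubiquitous CAG promoter, the AAV-Ctrl vector was empty, and BM was taken 3 weeks after the vector. There were 2 AAV-Ctrl libraries and 1 AAV-IL-27 library. The labels speak of 4 mice, do not say whether a library holds 1 mouse or a pool, and the sources used here do not give the sorting gate. No mice without tumour or vector were analysed here.

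Neutrophil genes fitted the label. Ly6g stood at 712 and 766 FPKM in AAV-Ctrl and 586 FPKM in AAV-IL-27, and none of the 11 neutrophil genes listed was lower or higher by the rule given below. The depth, read from the spacing of the low FPKM values, came to about 18800000 and 19200000 fragments in AAV-Ctrl against 18800000 in AAV-IL-27, and the FPKM summed to 594158, 586513 and 573759. With 1 AAV-IL-27 library, that group has no replicate error, and no p-value is given. Intervals below are at the 95% level, rest on estimated fragments and cover counting error only. Because the cells were a bulk sample of Ly6G+ cells, several readings of a lower level cannot be told apart. They are fewer macrophages in the BM, fewer macrophages carried along with the Ly6G+ cells, and less RNA of these genes per macrophage. None of these was tested.

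The AAV-IL-27 library held far less of 9 of the 10 genes, and Adgre1 was the exception. A gene was counted as lower or higher when log2(FPKM + 1) in AAV-IL-27 lay at least 1 unit under, or over, both AAV-Ctrl libraries. By this rule 9 of the 10 genes were lower, beside 212 of 9130 genes overall (2.32%), and 0 of the 10 were higher, beside 28 of 9130 (0.307%). Since the genes were selected on this same contrast, nothing is read from the distance between those shares. The median log2 difference was -1.98 for the 10 genes and -0.01 over all 9130. Between the AAV-Ctrl libraries (replicate 2 minus replicate 1) the corresponding medians were -0.05 and 0.00, and no member differed by more than 0.21 log2 units there.

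Summed over the 10 genes, the level was 272 FPKM in each AAV-Ctrl library and 70.8 FPKM in AAV-IL-27, or 26.04% of the AAV-Ctrl mean. Without Adgre1 the sums were 246, 247 and 49.6 FPKM, which left 20.1%.

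**Figure D1:**
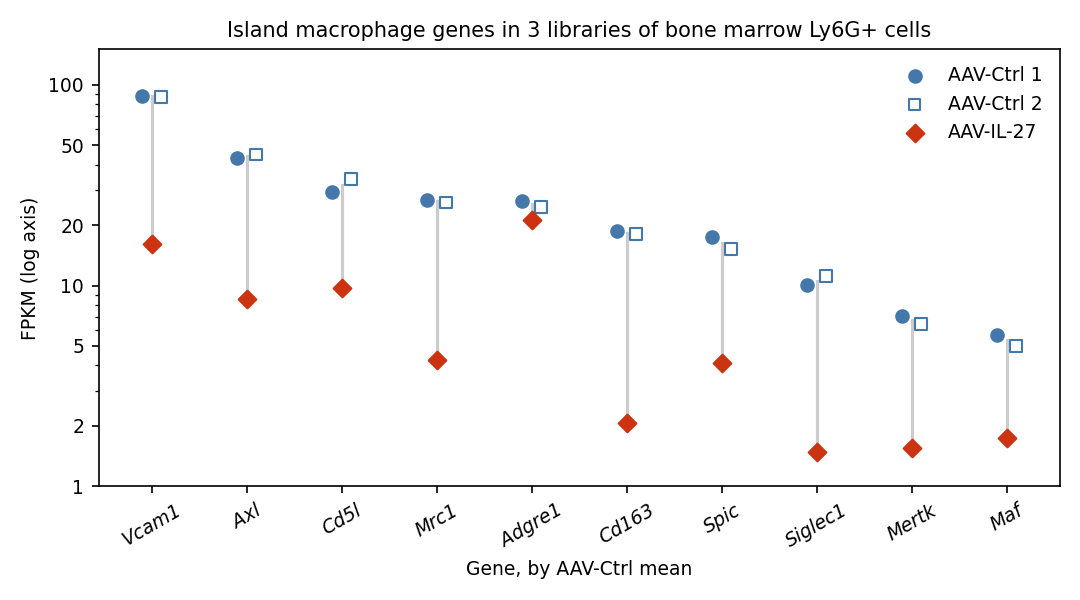
FPKM of the 10 genes on a log axis in the 2 AAV-Ctrl libraries and the single AAV-IL-27 library, 1 point per library. The AAV-Ctrl points lie on or beside each other for every gene. The AAV-IL-27 point is well below them for all but Adgre1, which went from 26.4 and 24.7 to 21.3 FPKM.

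Spic and Maf are the transcription factors of the set. Spic encodes Spi-C, an ETS factor induced by haem and needed for red pulp and BM iron-recycling macrophages. The gene (NCBI Gene 20728, chr10:88675269-88683023, minus strand, GRCm38) stood at 17.4 and 15.2 FPKM in AAV-Ctrl and 4.13 FPKM in AAV-IL-27. The AAV-IL-27 value, about 132 fragments, was below both AAV-Ctrl values, and was 25.4% of their mean of 16.3 ± 1.54 FPKM (SD, n = 2; interval 20.99% to 30.4%). Its log2 difference was -1.75.

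Maf encodes c-Maf, a basic leucine zipper factor of mature macrophages (NCBI Gene 17132, chr8:115703253-115706894, minus strand). It was the lowest of the 10 genes in AAV-Ctrl, with 5.68 and 4.98 FPKM, and stood at 1.74 FPKM in AAV-IL-27. Of its AAV-Ctrl mean of 5.33 ± 0.495 FPKM (SD, n = 2), 32.6% was left (interval 26.6% to 39.8%), the highest share of the 9 lower genes, at a log2 difference of -1.21. The ratio of Spic to Maf was 3.06 and 3.05 in AAV-Ctrl against 2.37 in AAV-IL-27.

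The promoter of Spic is shown because it held a motif of the Maf family, to which the other factor of the set belongs. In this and the later sequences, read 5′ to 3′ in the direction of the gene from 250 bases before the RefSeq start to 50 after it (GRCm38.p6), capitals mark the PU box core GAGGAA of ETS factors and the Maf half-site TGCTGA, on either strand. In the Spic promoter (chr10:88682974-88683273, minus strand) the 1 stretch in capitals is a Maf half-site, from -198 to -193 relative to the start.
Spic: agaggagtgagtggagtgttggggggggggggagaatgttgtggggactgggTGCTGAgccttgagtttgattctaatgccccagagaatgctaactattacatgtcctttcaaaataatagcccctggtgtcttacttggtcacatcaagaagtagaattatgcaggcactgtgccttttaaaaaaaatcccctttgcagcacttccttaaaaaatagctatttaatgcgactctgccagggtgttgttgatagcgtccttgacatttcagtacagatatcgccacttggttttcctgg

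Vcam1 and Siglec1 are the adhesion molecules by which the macrophage meets other cells. Vcam1 encodes VCAM-1, the ligand of integrin α4β1 on erythroblasts. It (NCBI Gene 22329, chr3:116110020-116129688, minus strand) was the most abundant of the 10 genes in AAV-Ctrl, at 87.8 and 86.7 FPKM, and stood at 16.0 FPKM in AAV-IL-27. That was 18.4% of a mean of 87.3 ± 0.778 FPKM (SD, n = 2; interval 17.2% to 19.6%), on 5622 and 5686 estimated fragments against 1025, and the log2 difference was -2.37. Vcam1 made up 32.3% and 31.9% of the summed FPKM of the set in AAV-Ctrl against 22.6% in AAV-IL-27.

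Siglec1 encodes sialoadhesin (CD169), a lectin for sialylated glycans that marks resident BM macrophages. It (NCBI Gene 20612, chr2:131067801-131086778, minus strand) stood at 10.02 and 11.2 FPKM in AAV-Ctrl. At 1.49 FPKM it was the lowest of the 10 genes in AAV-IL-27, close to Mertk at 1.56 FPKM. Of its AAV-Ctrl mean of 10.6 ± 0.799 FPKM (SD, n = 2), 14.1% was left (interval 12.0% to 16.4%), at a log2 difference of -2.22.

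The scavenger receptors and lectins held the gene with the least left. Cd163 encodes the receptor for haptoglobin-haemoglobin complexes (NCBI Gene 93671, chr6:124304636-124330529, plus strand), and stood at 18.7 and 18.02 FPKM in AAV-Ctrl and 2.07 FPKM in AAV-IL-27. The AAV-IL-27 library kept 11.3% of 18.4 ± 0.474 FPKM (SD, n = 2, interval 9.62% to 13.2%), at a log2 difference of -2.66. By its difference from the nearer AAV-Ctrl library, -2.63, Cd163 was at rank 7 of 9130 genes from the most negative. Its place among the levels of those genes went from the percentiles 67.1 and 66.5 to 17.1.

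Mrc1 encodes the mannose receptor CD206, an endocytic lectin (NCBI Gene 17533, chr2:14229414-14332023, plus strand). It stood at 26.8 and 25.9 FPKM in AAV-Ctrl and 4.24 FPKM in AAV-IL-27, so that 16.1% was left of 26.3 ± 0.636 FPKM (SD, n = 2; interval 14.6% to 17.8%), with a log2 difference of -2.38. Its promoter is shown as the one with the most PU box cores among those read. It (chr2:14229164-14229463, plus strand) holds 3 of them, all on the opposite strand, from -180 to -175, from -167 to -162 and from -35 to -30.
Mrc1: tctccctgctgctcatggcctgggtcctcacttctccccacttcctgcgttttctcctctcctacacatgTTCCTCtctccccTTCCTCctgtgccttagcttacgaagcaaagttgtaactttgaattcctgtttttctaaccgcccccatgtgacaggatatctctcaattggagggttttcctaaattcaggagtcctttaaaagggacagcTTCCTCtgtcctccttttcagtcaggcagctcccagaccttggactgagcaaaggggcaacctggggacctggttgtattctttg

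Cd5l encodes CD5L (AIM), a secreted scavenger protein of tissue macrophages (NCBI Gene 11801, chr3:87357881-87371074, plus strand). Its FPKM was 29.2 and 33.9 in AAV-Ctrl, the widest AAV-Ctrl spread of the set at 31.5 ± 3.28 (SD, n = 2), and 9.75 in AAV-IL-27. The share left was 30.9% (interval 27.6% to 34.6%) and the log2 difference -1.59. The Cd5l promoter (chr3:87357631-87357930, plus strand) is shown because it was the only one read that held both motifs. A PU box core lies on the opposite strand from -66 to -61, and Maf half-sites from -54 to -49 and from -46 to -41 face each other across 2 bases.
Cd5l: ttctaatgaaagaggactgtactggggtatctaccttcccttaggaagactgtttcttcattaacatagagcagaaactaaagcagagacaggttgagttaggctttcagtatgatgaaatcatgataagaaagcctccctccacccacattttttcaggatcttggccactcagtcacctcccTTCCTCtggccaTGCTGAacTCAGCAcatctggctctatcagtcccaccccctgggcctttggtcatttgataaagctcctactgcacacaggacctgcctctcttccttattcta

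Axl and Mertk encode receptor tyrosine kinases that bind phosphatidylserine on dying cells through the bridging proteins Gas6 and protein S. Axl (NCBI Gene 26362, chr7:25756500-25788924, minus strand) stood at 43.2 and 44.9 FPKM in AAV-Ctrl and 8.56 FPKM in AAV-IL-27. This left 19.5% of 44.0 ± 1.20 FPKM (SD, n = 2; interval 17.9% to 21.1%), at a log2 difference of -2.23. Mertk (NCBI Gene 17289, chr2:128698915-128803162, plus strand) stood at 7.02 and 6.46 FPKM in AAV-Ctrl and 1.56 FPKM in AAV-IL-27, or 23.1% of 6.74 ± 0.396 FPKM (SD, n = 2; interval 19.0% to 27.9%), at a log2 difference of -1.60. Both kinases were below both AAV-Ctrl libraries, and the ratio of Axl to Mertk was 6.15 and 6.94 in AAV-Ctrl against 5.49 in AAV-IL-27.

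Adgre1 encodes F4/80, an adhesion GPCR used as a pan-macrophage marker in mice and also made by eosinophils and monocytes. It (NCBI Gene 13733, chr17:57358581-57483529, plus strand) stood at 26.4 and 24.7 FPKM in AAV-Ctrl and 21.3 FPKM in AAV-IL-27. The AAV-IL-27 value was below both AAV-Ctrl values, at 83.2% of 25.6 ± 1.21 FPKM (SD, n = 2, interval 77.9% to 88.9%). The log2 difference from the AAV-Ctrl mean was -0.25, and the gene did not meet the rule. By its difference from the nearer AAV-Ctrl library, -0.21, it ranked 1572 of 9130 from the most negative. Adgre1 made up 9.70% and 9.09% of the summed FPKM of the 10 genes in AAV-Ctrl against 30.03% in AAV-IL-27, where it became the most abundant of them.

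**Figure D2:**
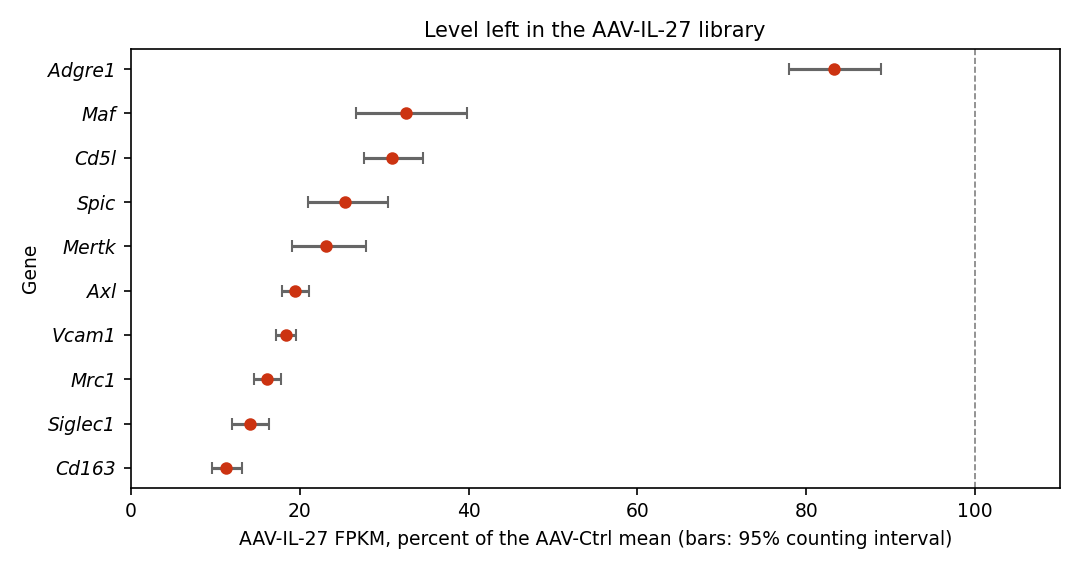
FPKM in the AAV-IL-27 library as a percentage of the AAV-Ctrl mean for the 10 genes, with bars for the 95% counting interval and a dashed line at the AAV-Ctrl level. The 9 lower genes lie between 11.3% and 32.6%, and Adgre1 lies apart at 83.2%.

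The shares left of the 9 lower genes ranged from 11.3% to 32.6% in the 1 AAV-IL-27 library. Cd163, Siglec1 and Mrc1 were at the low end, and Spic, Cd5l and Maf at the high end. The values rest on 117 to 1269 estimated fragments for each of the 10 genes in AAV-IL-27, beside 343 to 5686 in AAV-Ctrl. The intervals take no account of differences between mice, so whether the genes differ from each other in the share left was not tested.

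The order of the levels was the same in both AAV-Ctrl libraries. From high to low FPKM it ran Vcam1, Axl, Cd5l, Mrc1, Adgre1, Cd163, Spic, Siglec1, Mertk and Maf, and the only neighbours whose AAV-Ctrl values overlapped were Mrc1 and Adgre1. In AAV-IL-27 it ran Adgre1, Vcam1, Cd5l, Axl, Mrc1, Spic, Cd163, Maf, Mertk and Siglec1. Adgre1 thus moved from the fifth place to the first, and Siglec1 from the eighth to the last. The last places lay close together, with Maf, Mertk and Siglec1 at 1.74, 1.56 and 1.49 FPKM in AAV-IL-27. These values rest on 117, 124 and 177 estimated fragments in 1 library, and their order was not tested.

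**Figure D3:**
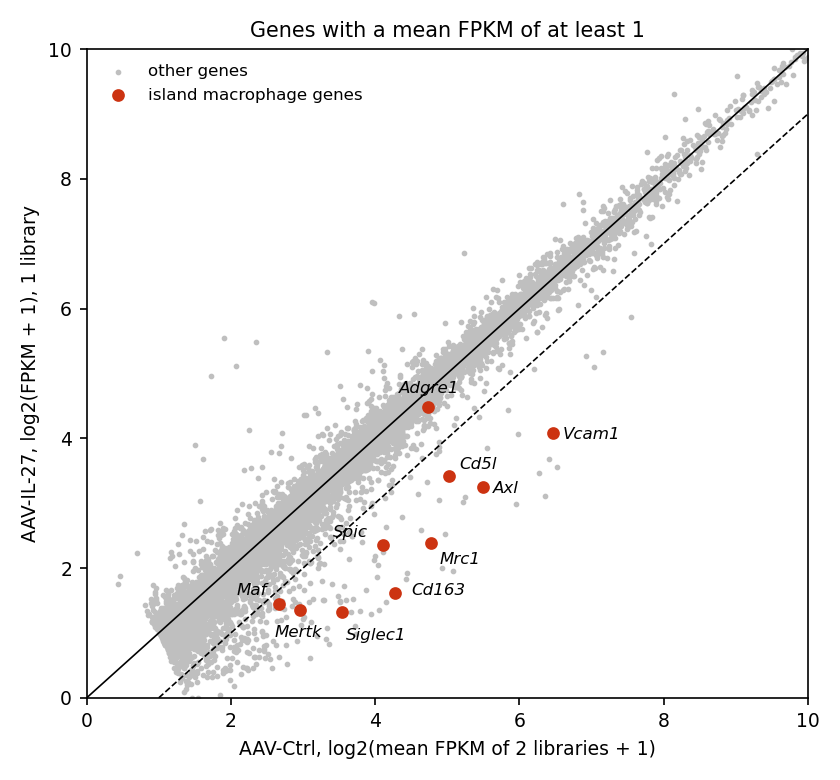
Level in the AAV-IL-27 library against the mean of the 2 AAV-Ctrl libraries, as log2(FPKM + 1), for genes that passed the filter (grey) and the 10 island macrophage genes (red). The solid line marks equal levels and the dashed line 1 log2 unit below; the axes end at 10, which leaves out 58 genes. Adgre1 lies within the grey band and the 9 other genes lie below the dashed line.

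Other genes of macrophages were in part lower by the rule. Of 16 further macrophage genes, 15 were in the table and 12 passed the filter on low values; 5 of these were lower, C1qa, C1qb, C1qc and Timd4 among them, and 0 were higher, with a median log2 difference of -0.98. C1qa, a chain of complement C1q that resident macrophages secrete, stood at 138 and 146 FPKM in AAV-Ctrl and 39.4 FPKM in AAV-IL-27. Cd68, a lysosomal glycoprotein of all phagocytes, stood at 118, 109 and 86.4 FPKM. Csf1r, the M-CSF receptor, which monocytes share, stood at 78.6, 74.5 and 75.4 FPKM.

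Around Spic and Maf, 10 related factors were listed, of which 8 passed the filter, 2 were lower and 0 higher (median 0.01). Spi1, which encodes PU.1, the ETS factor that neutrophils and macrophages both need, stood at 589, 611 and 632 FPKM. Bach1, the haem-sensing repressor of Spic, stood at 34.4, 29.7 and 34.5 FPKM.

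Of 9 genes for haem and iron handling, 4 were lower and 0 higher, with a median of -0.40. Hmox1, the enzyme that opens the haem ring, stood at 207 and 164 FPKM in AAV-Ctrl and 57.9 FPKM in AAV-IL-27, and Blvrb, a biliverdin reductase, at 45.3, 46.1 and 13.4 FPKM. Slc40a1, the iron exporter ferroportin, stood at 168, 152 and 121 FPKM, which was not lower by the rule. Blvra and Lrp1, a haemopexin receptor, were the other lower genes.

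Among 8 genes for the attachment and support of erythroblasts and the digestion of their nuclei, 2 were lower, Igf1 and Epor, and 0 higher (median -0.36). Maea, the erythroblast macrophage protein, stood at 84.3, 77.2 and 81.3 FPKM. Icam4 stood at 1.94 and 1.42 FPKM in AAV-Ctrl and 0.25 FPKM in AAV-IL-27. At -0.95 from the nearer AAV-Ctrl library it missed the rule, whose added 1 narrows differences at low FPKM. Of the genes for partners of VCAM-1 and related adhesion molecules, 7 were in the table and none was lower or higher by the rule (median 0.03). Itga4, which encodes the α4 chain, stood at 21.9, 21 and 21.4 FPKM. By log2 difference the extremes were Itga9, at 1.49, 1.69 and 0.51 FPKM, and Itgb7, at 17.8, 21.6 and 40.6 FPKM.

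Around Axl, Mertk, Cd163 and Siglec1, further receptors and ligands were counted. Of 13 genes for the uptake of dying cells, 9 passed the filter and 5 were lower, Itgb5, Lrp1, Timd4, Cd36 and Stab2, with 0 higher and a median of -1.03. Gas6, the ligand of both kinases, stood at 1.77 and 1.82 FPKM in AAV-Ctrl and 0.43 FPKM in AAV-IL-27, or 24.0% of the AAV-Ctrl mean. At -0.95 from the nearer AAV-Ctrl library it was not lower by the rule, in which the 1 added to each FPKM narrows differences at such low levels. Of 10 scavenger receptors and lectins, 7 passed the filter and 2 were lower, Cd36 and Stab2 (median -0.76). Of 7 genes for sialic acid lectins 6 passed it and none was lower or higher (median 0.05). The extremes of these 6 were Cd22, at 1.96, 2.58 and 0.57 FPKM, and Siglecf, at 9.49, 7.44 and 12.4 FPKM. Of the relatives of Adgre1, Adgre4 was lower, at 5.41 and 6.16 against 1.38 FPKM, and Adgre5 stood at 233, 283 and 222 FPKM.

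**Figure D4:**
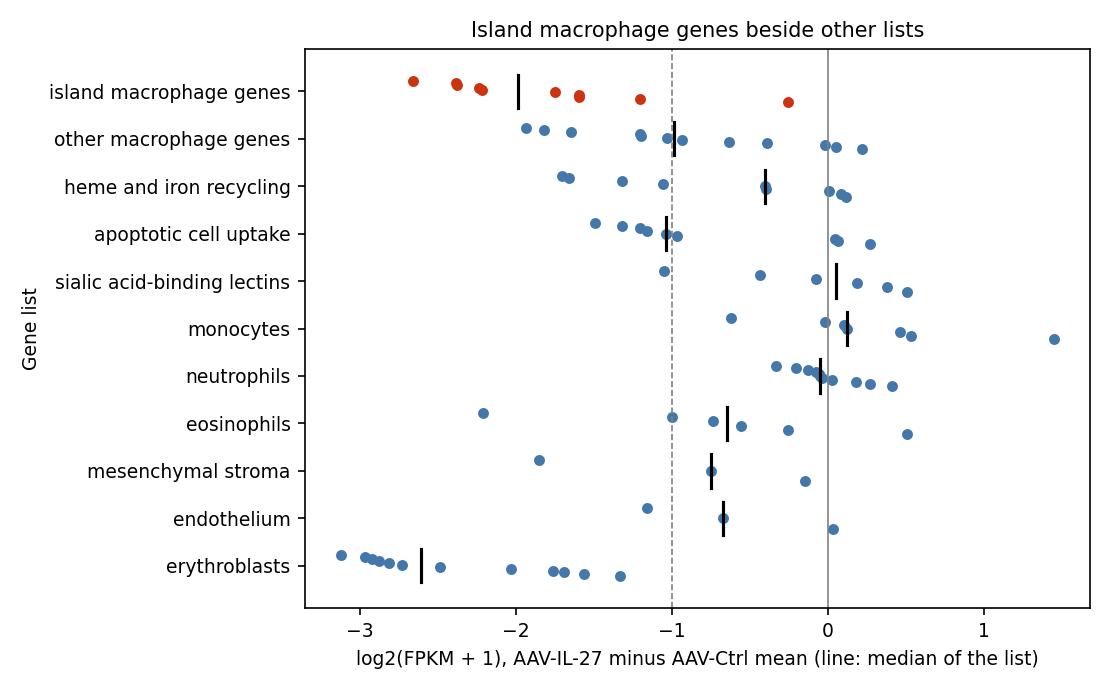
Difference of each gene between AAV-IL-27 and the AAV-Ctrl mean, in log2(FPKM + 1), for the 10 island macrophage genes and the other lists, 1 point per gene and a bar at each list's median. The island macrophage genes have a median of -1.98 and the erythroblast genes one of -2.61, while the neutrophil genes centre at -0.05 and the monocyte genes at 0.12.

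Genes of several other cells that a BM sample can hold were lower beside the 9 genes. All 12 erythroblast genes were lower, with a median of -2.61 and sums of 14771 and 9887 FPKM in AAV-Ctrl against 1684 FPKM in AAV-IL-27 (13.7%). The erythroblast sums of the AAV-Ctrl libraries lay further apart than their sums over the 10 macrophage genes, which were 272 FPKM in each. Of 5 megakaryocyte genes that passed the filter, 3 were lower (sums over the whole list 53.0, 59.2 and 9.61 FPKM). Of 8 B cell genes 4 passed it, and all 4 were lower (27.7, 35.1 and 4.38 FPKM). Of 7 osteoclast genes only Acp5 and Ctsk passed it, and both were lower (list sums 23.3, 17.0 and 4.70 FPKM). Atp6v0d2 stood at 0.85, 0.76 and 1.21 FPKM, and the other 4 osteoclast genes were below 1 FPKM in every library.

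Genes of stroma and vessels were scarce. The mesenchymal stroma list summed to 10.9 and 13.6 FPKM in AAV-Ctrl and 3.28 FPKM in AAV-IL-27, with Adipoq listed at 0 there and Cxcl12 lower, at 6.58, 7.15 and 1.18 FPKM. The endothelial list summed to 9.37, 9.64 and 5.64 FPKM, of which Pecam1, also made by leukocytes, held 4.21, 4.04 and 4.25 FPKM. Stab2 was lower, at 2.33, 1.97 and 0.41 FPKM, and Vwf stood at 1.15, 1.30 and 0.27 FPKM. The parts of erythroblasts and of these other cells in the levels of the 10 genes were not tested.

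None of the neutrophil and monocyte genes that passed the filter was lower by the rule. The neutrophil sum was 95.3% of the AAV-Ctrl mean, with 0 of 11 genes lower. The monocyte sum was 110%, and most of it was Ly6c2, at 1023, 1086 and 1145 FPKM. Of 7 monocyte genes 0 were lower and 1 higher, the lipopolysaccharide co-receptor gene Cd14, at 15.0 and 12.9 against 39.6 FPKM. The chemokine receptor gene Ccr2 stood at 1.43, 1.61 and 2.64 FPKM and Irf8, a monocyte transcription factor gene, at 7.49, 7.89 and 4.66 FPKM. The eosinophil list, whose cells also make F4/80, had a median log2 difference of -0.64, with 1 of 6 genes lower, Ccr3, at 14.4, 12.9 and 2.16 FPKM. Its sum of 144, 146 and 112 FPKM (77.1%) was mostly Ear2, at 106, 108 and 89.6 FPKM. Epx, the eosinophil peroxidase gene, stood at 1.23, 1.83 and 0.71 FPKM, and Siglecf at 9.49, 7.44 and 12.4 FPKM. T and NK cell genes summed to 14.8, 15.6 and 14.0 FPKM, and 0 of 2 dendritic cell genes that passed the filter were lower or higher. The part of eosinophils and monocytes in the Adgre1 level was not tested.

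RefSeq promoters were matched for 6 of the 10 genes, Axl, Cd163, Cd5l, Mertk, Mrc1 and Spic. The PU box core was found in 3 of these 6, Mrc1, Cd5l and Axl (in Axl from -130 to -125), beside 28.3% of 32851 promoters of the same length. Counted by gene, 31.4% of 7411 genes that passed the filter and had a promoter held it in at least 1 promoter. The Maf half-site was found in 2 of 6, Spic and Cd5l, beside 19.5% of all promoters. The facing pair of half-sites with 2 bases between them, looked for after it had been seen in Cd5l, was found in 2 of 32851 promoters, the Cd5l promoter among them.

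The STAT palindrome TTCNNNGAA was found in 0 of the 6 promoters and in 8.30% of all, and the interferon-stimulated response element core in 0 of 6 and 3.44%. The E-box CACGTG (7.15% of all), the AGATAA form of the GATA site (11.2%) and the TATA box TATAAA (13.6%) were likewise found in 0 of the 6. Other forms of the GATA site, such as TGATAA, were not searched, so their absence is not implied. All motifs were searched on both strands, and a match is no more than a match of letters in these windows.

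The CpG dinucleotides in the promoters of the 6 genes numbered 0 (Cd5l), 2 (Cd163), 3 (Mrc1), 3 (Spic), 6 (Axl) and 14 (Mertk). Their median of 3 stood beside medians of 7 over all promoters and 21 over those of genes that passed the filter, 31.2% of which held no more than 14. The median GC content was 48.3%, beside 52.7% and 60.7%.

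The genes with the most similar values were named by their distance from the median profile of the 10 genes over the 3 libraries, each gene taken relative to its AAV-Ctrl mean in log2(FPKM + 1). The 5 nearest were Zfpm1, at 6.40, 6.67 and 0.83 FPKM (distance 0.0919), Slc43a1, at 4.65, 5.00 and 0.51 FPKM (0.102), Ckb, at 10.9, 9.47 and 1.96 FPKM (0.117), Aldh1a1, at 4.74, 4.37 and 0.53 FPKM (0.128), and Col14a1, at 5.16, 4.74 and 0.37 FPKM (0.140). Zfpm1 encodes FOG-1, the partner of GATA-1 in erythroid and megakaryocytic cells, and Aldh1a1 a retinaldehyde dehydrogenase. Over 3 libraries such a likeness describes these values only.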

How the data were processed

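RNA-seq of Ly6G+ BM cells was analysed in 3 libraries, grouped by their labels (2 AAV-Ctrl, 1 AAV-IL-27). After oligo-dT selection and strand-marked sequencing, the authors deposited FPKM values with 2 decimals. The submitters' processing notes name the mm10 build, and the aligner and counter are not given in the sources used here. Of 16073 rows, 1 had no symbol and was left out. The table also holds 1 column whose name gives it as another IL-27 library. It belonged to no listed sample and was left out.

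Differences were taken as log2(FPKM + 1), AAV-IL-27 minus the AAV-Ctrl mean, among genes averaging at least 1 FPKM over the 3 libraries. A gene counted as lower or higher at 1 log2 unit from each AAV-Ctrl library. With a single AAV-IL-27 library no test was made. Whether each library holds a separate mouse is not stated.

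Depth was estimated from FPKM steps of 10115 genes deposited with a single transcript, whose length was taken from GENCODE. With 60 nt subtracted from each length, 82.0%, 76.2% and 75.6% of 272, 240 and 266 low values came within 0.2 of a whole fragment. Fragment numbers are therefore estimates, and no count test was made. Where a gene has several transcripts, the shortest length was used, and for Maf the RefSeq gene span, which was shorter. Intervals are exact Poisson intervals for fragments and Clopper-Pearson intervals for shares.

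The members and the gene lists were chosen with earlier results of these data known, and the lists overlap. Genes named are the members, list genes on which a result turns, and the 5 genes nearest to the members' median profile, apart from the facing Maf half-sites, which were added after the Cd5l promoter had been seen. Planned protein features were not analysed here. The single values of some list genes are not reported here. Scripts were tested on simulated data and ran in Python 3.11.15 with scipy 1.17.1, numpy 2.4.6, matplotlib 3.10.9 and pandas 2.3.3. The alternatives were other pseudocounts, filters, scalings and thresholds, and leaving out each AAV-Ctrl library.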

Additional observations from a re-analysis of the deposited data

How the results depend on the processing

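All 10 members kept a negative log2 difference under the pseudocounts, scalings and left-out AAV-Ctrl libraries tried, and Adgre1 ranged from -0.30 to -0.21. The count of lower members was 9 under every alternative but 2 of them: it was 5 at a threshold of 2, and 8 with the filter raised to a mean FPKM of 5, which Maf did not pass. Their median was -2.19 and -2.23 with pseudocounts of 0.1 and 0.01, and -2.22 with the filter raised to a mean FPKM of 5. Over all genes, 396 and 425 were lower with those pseudocounts, 93 with the filter at 5, and 640 and 39 at thresholds of 0.5 and 2. Higher genes numbered 46 with a pseudocount of 0.01, and 143 and 5 at those thresholds. Leaving out an AAV-Ctrl library gave 40 higher genes without replicate 1 and 49 without replicate 2, since only 1 control library then had to be passed. The alternative of leaving out the AAV-IL-27 library was not possible. No paired analysis was possible because AAV-IL-27 has 1 library and so shares no more than 1 number with AAV-Ctrl. Depth limits Maf, Mertk and Spic most, with 117 to 132 estimated fragments in AAV-IL-27.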
